A study of Saccharomyces cerevisiae with 18 samples.

Results

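The pentose phosphate pathway of budding yeast was followed here through 10 of its genes, ZWF1, SOL3, SOL4, GND1, GND2, RPE1, TKL1, TKL2, TAL1 and NQM1. Each gene was found by its systematic name among the features of the allele-specific read tables, where a feature is 1 gene or a group of overlapping genes counted together. The table of the whole series holds 3974 features, and 9 of the 10 pathway genes lie in 1 of them each. The feature of GND1 is only in the tables per library, which hold 4105 features.

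All cells were of 1 diploid strain, a cross of BY4716 (BY), a laboratory yeast, and RM11-1a (RM), a yeast from a vineyard. The allele rpb1-1, which makes RNA polymerase II fail at high temperature, had been put into each haploid before the cross, so every library shares it. Cultures grew in rich glucose medium (YEPD) at 24 °C to mid-log phase and were moved to 37 °C by adding hot medium, and 3 independent cultures were sampled at the shift (0 min), then at 6, 12, 18 and 24 min, and last at 42 min, which gave 18 poly(A) RNA libraries. The 0 min aliquot was taken right after the hot medium went in. No group without the shift and no strain with wild-type RPB1 is among the samples used here, so heat, loss of polymerase II and time cannot be told apart.

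The pathway runs from glucose 6-phosphate in an oxidative branch, which yields NADPH and ribulose 5-phosphate, and a reversible branch, which exchanges carbon between pentoses and glycolytic sugars. Yeast carries a main and a minor isozyme for several steps. SOL4, GND2, TKL2 and NQM1 are the minor forms and are known as genes that respond to stress or to the exhaustion of glucose, while SOL3, GND1, TKL1 and TAL1 are the main forms in growing cells.

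What a value stands for depends on the feature. SOL4 and TKL1 are features of 1 gene. TKL2 is counted with YBR116C and GND1 with YHR182C-A, neither of which is in the RefSeq table used here. The others are counted with a named neighbour: ZWF1 with the autophagy gene ATG2, SOL3 with the nuclease-helicase gene DNA2, GND2 with the mitochondrial carrier gene MTM1, TAL1 with the bud-site gene BUD8, NQM1 with MTE1, and RPE1 with the ribosome biogenesis gene ALB1 and YJL120W. The library kit does not mark strand, so reads in a shared feature cannot be given to one gene, and such values are reported under the names of all genes in the feature.

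The isozymes of each step are related genes, and the coding sequences were compared to see how far 50-base reads could mix them. GND2 and GND1 were the most alike, with 79.1% identical aligned bases, against 69.6% for TKL2 and TKL1, 68.9% for NQM1 and TAL1, and 59.0% for SOL4 and SOL3. No stretch of 50 bases was shared exactly within any of the 4 pairs. Stretches of 50 bases with a few differences were not searched for. The longest identical stretches of the 3 most similar pairs are printed below. The first is 20 bases long and the others are 17, and the longest shared by SOL4 and SOL3 is 8. Coordinates are those of the first gene in the R64 assembly, and the letters are on its coding strand.
GND2 and GND1 (chrVII:1004669-1004688, plus strand): atgggtcaaaatttgatctt
TKL2 and TKL1 (chrII:475895-475911, minus strand): aattgggtaacttgatt
NQM1 and TAL1 (chrVII:580481-580497, minus strand): ggtatcagaaaattctc

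The 500 bases before each start codon were searched on both strands for CCCCT, the stress response element bound by Msn2 and Msn4. At least 1 match was present in 8 of the 10 genes, and no match in GND1 and RPE1. Of 6006 nuclear protein-coding genes, 34.1% had a match in a window of this length, 8.18% had 2 or more and 1.83% had 3 or more. ZWF1 had 5 matches, NQM1 had 3, GND2 had 2, and SOL3, SOL4, TKL1, TKL2 and TAL1 had 1 each. The matches in the isozyme pairs are shown with the motif in capitals, on the strand of the gene, because they allow the main and the minor form to be read side by side. For NQM1 the motif lies on the other strand and reads AGGGG, and its match at the far edge of the window is left out.
SOL4 (chrVII:985836-985860): aaaaaatcccCCCCTaagcagcgaa
SOL3 (chrVIII:423696-423720): aattgctttaCCCCTggtccgcgac
GND2, distal (chrVII:1004315-1004339): aattgaggcgCCCCTaatttttttg
GND2, proximal (chrVII:1004450-1004474): gttatcttcaCCCCTattttcattt
TKL2 (chrII:476500-476524): attggcttgtCCCCTcttactgtag
TKL1 (chrXVI:694998-695022): tacatactccCCCCTgatcttttac
NQM1, distal (chrVII:581598-581622): cttccatagtAGGGGcgaatgaggg
NQM1, proximal (chrVII:581587-581611): ggggcgaatgAGGGGagcatagtgg
TAL1 (chrXII:837580-837604): tggtggacggCCCCTttccaacgaa
The heat shock element core GAANNTTC was present once, in the window of GND2, and in 19.2% of all windows. The Yap1 site TTACTAA was present once, in the window of TKL2, and in 11.8% of all windows. The first lay 424 bases before the GND2 start codon and the second 26 bases before that of TKL2.
GND2, heat shock element core (chrVII:1004190-1004217): actttttcttGAAACTTCaagggtttgc
TKL2, Yap1 site (chrII:476447-476473): cgattataccTTACTAAtcaaaaaaag
A match describes these letters only, and no binding was measured.

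The libraries held 13626796 allelic reads in all. One library, 18 min of culture 3, had 74320, and the other 17 had 439453 to 1180513. LYS2, which BY4716 lacks, served as a check of the allele labels, and BY reads made up 0.609% ± 0.529 (SD, n = 3) of its reads at 0 min. Of 8 heat-responsive genes, 7 had enough reads for the abundance test and all 7 rose from 0 to 42 min, with a median log2 change of 5.70. Among all 2840 features tested, 37.2% rose. Levels are given as CPM, the allelic read count scaled to the library total, after TMM scaling. There is no spike-in, so a CPM is a share of the measured mRNA pool, and a rise in share by new RNA cannot be told apart from a slower loss than that of other mRNAs. Fewer cells and less RNA per cell cannot be told apart in such bulk libraries either. Reads are counted at single-nucleotide variants (SNVs), whose number differs between genes, so levels are compared between times and not between genes.

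From 0 to 42 min, 6 of the 8 pathway features with enough reads changed in abundance at an adjusted p under 0.05 by edgeR's quasi-likelihood test, 4 up and 2 down. Among these features, those of the minor isozymes SOL4 and TKL2 made the 2 largest changes, with 77.2-fold and 33.0-fold rises. Across all 2840 features tested, 76.3% passed the same test, 37.2% up and 39% down, so the share of pathway features called was close to the background. Scaled to library totals alone, 26.6% of all features rose and 49.6% fell. The median log2 change was 0.75 over the 8 features and -0.05 over all features. At 6, 12, 18 and 24 min against 0 min, 3, 3, 4 and 6 of the 8 features passed, against 34.9%, 54.6%, 60.4% and 66.3% of all features.

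**Figure D1:**
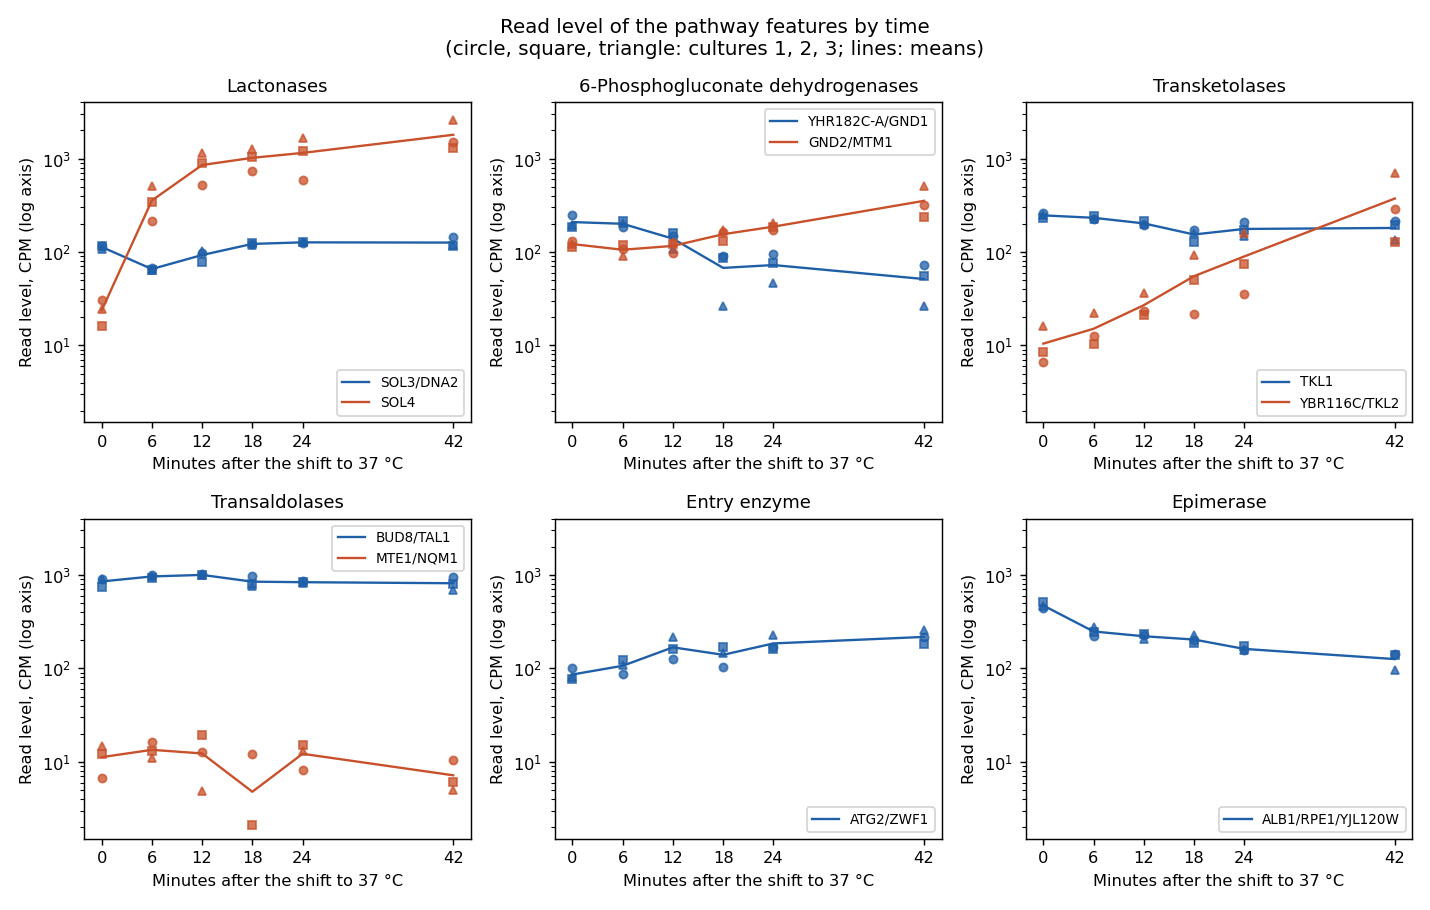
Read level in CPM (log axis) against minutes after the shift to 37 °C, one panel per enzyme step, with 1 marker shape for each of 3 cultures and lines through the means. Blue marks main or single forms, orange the minor isozymes; the SOL4 line climbs from a mean of 23.7 to 1798 CPM, while BUD8/TAL1 stays between 816 and 1002 CPM; one MTE1/NQM1 library at 18 min holds 0 reads and has no marker.

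ZWF1 (YNL241C, chrXIV:196426-197943) encodes glucose-6-phosphate dehydrogenase, the entry enzyme of the oxidative branch. Its feature with ATG2 held 25 SNVs and 1960 reads over the 18 libraries. At 0 min it stood at 100.3, 76.2 and 81.8 CPM in cultures 1, 2 and 3, and at 42 min at 214, 183 and 255 CPM. Every library of 42 min was above every library of 0 min. The feature rose by 1.35 ± 0.21 on the log2 scale (SE, adjusted p = 9.59e-06, edgeR), and the rise passed the threshold from 12 min on, at 0.96 ± 0.22 (adjusted p = 0.00108). Taken one SNV at a time, 11 of 20 tested SNVs rose and none fell, so the rise was not set by a single site. Among all 22937 SNVs tested in this way, 24% rose and 27.4% fell.

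The lactonases SOL3 and SOL4 hydrolyse 6-phosphogluconolactone, the step after ZWF1. SOL4 (YGR248W, chrVII:985972-986739), the minor form, had the largest change among the 8 pathway features tested. At 0 min the 3 cultures had 30.8, 16.0 and 24.3 CPM, from 23, 17 and 33 reads. At 6 min they had 217, 347 and 505 CPM, and at 12 min 519, 888 and 1154 CPM. The rise was present in the first sample after the shift in each culture, with no overlap between 0 and 6 min. Levels were 732, 1051 and 1274 CPM at 18 min, 594, 1204 and 1653 CPM at 24 min, and 1512, 1293 and 2589 CPM at 42 min. The libraries of 12, 18 and 24 min overlapped, and so did those of 24 and 42 min. The log2 change was 3.93 ± 0.49 at 6 min (adjusted p = 4.13e-06, edgeR) and 6.27 ± 0.49 at 42 min (adjusted p = 9.55e-10). All 9 SNVs of SOL4 rose, and the 7 that had reads at 0 min did so by 5.11 to 7.37 on the log2 scale.

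The main form, SOL3 (YHR163W, chrVIII:423724-424473), shares a feature of 28 SNVs with DNA2. It stood at 115, 117 and 108 CPM at 0 min and fell to 68.0, 64.5 and 64.7 CPM at 6 min. This drop of -0.78 ± 0.12 (log2, adjusted p = 6.94e-05, edgeR) was followed by 97.6, 79.1 and 101.8 CPM at 12 min. At 42 min the 3 libraries held 145, 116 and 118 CPM, which overlapped those of 0 min, and the change was 0.15 ± 0.12 (adjusted p = 0.270, 95% interval -0.09 to 0.38). Scaled to library totals alone, that change was -0.17, beside a shift of the median of all features from -0.05 to -0.37. Of 16 SNVs tested, 2 rose and 14 did not pass.

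The 6-phosphogluconate dehydrogenases GND1 and GND2 make the second NADPH of the oxidative branch. GND1 (YHR183W, chrVIII:470960-472429), the main form, had 4 SNVs, all outside the table of the whole series, with 1860 reads from BY and 0 from RM. At these SNVs a count of 0 allows an RM share of up to 0.161% by counting error. Reads over several SNVs may be counted repeatedly, so this limit may be too low, and it is not a limit for the gene. At the 2 TKL1 SNVs outside that table, 3162 reads were from BY and 3 from RM. The TKL1 SNV inside it had 1450 BY and 1373 RM reads. No allelic ratio was computed for GND1, and the GND1 level rests on BY reads. The 3 cultures held 249, 184 and 194 CPM at 0 min, 184, 214 and 203 CPM at 6 min, and 150, 160 and 107 CPM at 12 min. They then held 89.7, 86.5 and 26.5 CPM at 18 min, the last from 2 reads, 94.2, 76.6 and 46.8 CPM at 24 min, and 73.2, 54.8 and 26.1 CPM at 42 min. All libraries from 18 min on lay below all libraries of 0, 6 and 12 min. In the fit that used the SNVs of all tables, GND1 fell by 2.06 ± 0.27 on the log2 scale (adjusted p = 1.45e-06, edgeR), where 39.1% of 2947 features fell.

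GND2 (YGR256W, chrVII:1004624-1006102) shares 19 SNVs with MTM1 (chrVII:1006205-1007305). The feature held 130, 113 and 122 CPM at 0 min and 321, 235 and 504 CPM at 42 min, a rise of 1.54 ± 0.20 on the log2 scale (adjusted p = 9.72e-07, edgeR). That rise came from part of its SNVs. Summed over SNVs 12 to 19, in file order, the level was 1.34, 4.70 and 5.16 CPM at 0 min and 195, 122 and 372 CPM at 42 min, with means of 10.9, 19.8, 53.8 and 72.5 CPM at the times between. Each of these 8 SNVs rose, and the 7 with reads at 0 min did so by 4.36 to 6.23 on the log2 scale. SNVs 1 to 6 together held 109.7, 98.7 and 104.6 CPM at 0 min and 92.3, 101.1 and 106.9 CPM at 42 min, and none of the 6 passed the test. Among SNVs 7 to 11, of which 2 were tested, SNV 10 rose by 1.75 ± 0.55 (adjusted p = 0.0069). These groups of SNVs were set after their values were seen. Since the positions of the SNVs inside a feature are not given, no group could be assigned to GND2 or to MTM1. With only the deepest SNV of each feature, SNV 5 here, the change was -0.36 (adjusted p = 0.222).

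**Figure D2:**
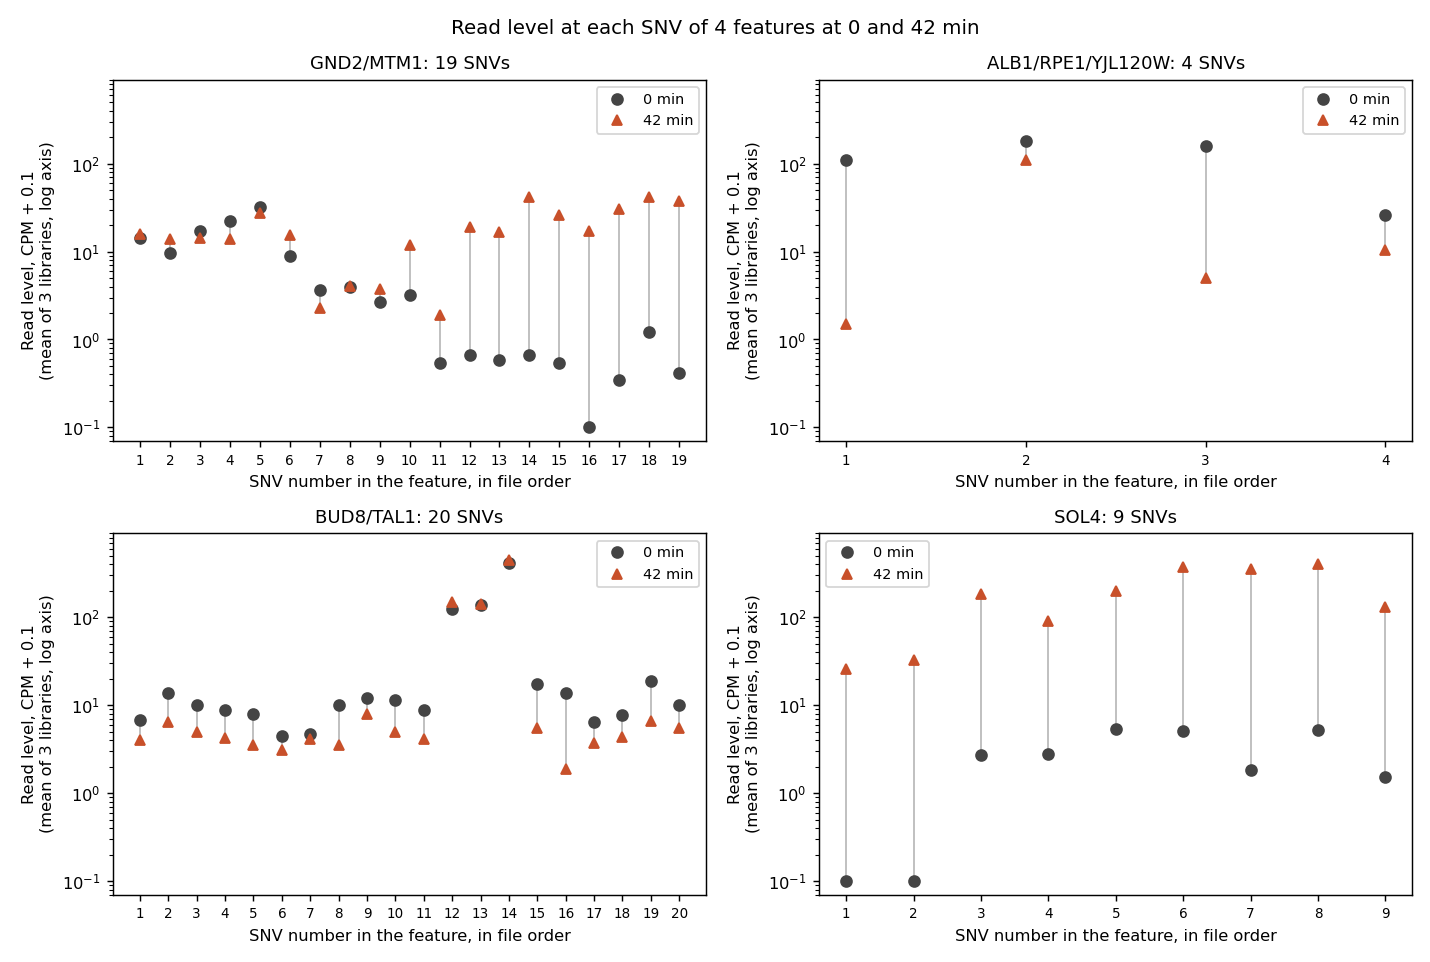
Read level in CPM plus 0.1 (log axis, mean of 3 libraries) at each SNV of 4 features, in file order, with circles for 0 min and triangles for 42 min. SNVs 12 to 19 of GND2/MTM1 and all SNVs of SOL4 sit higher at 42 min, SNVs 1 and 3 of ALB1/RPE1/YJL120W drop far below their 0 min level, and SNVs 12 to 14 of BUD8/TAL1 keep it.

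RPE1 (YJL121C, chrX:190374-191090) encodes ribulose 5-phosphate epimerase, which leads pentoses into the reversible branch. Its feature with ALB1 and YJL120W fell from 444, 509 and 461 CPM at 0 min to 143, 138 and 97.0 CPM at 42 min. The log2 change was -1.92 ± 0.13 (adjusted p = 9.12e-11, edgeR), and the drop had passed the threshold at 6 min, at -0.92 ± 0.11 (adjusted p = 3.81e-06). All 4 SNVs fell, in 2 sizes. SNVs 1 and 3 changed by -6.23 and -5.13 on the log2 scale, and together went from a mean of 266 CPM at 0 min to 44.1 at 6 min and 6.34 at 42 min. SNVs 2 and 4 changed by -0.78 and -1.34, and together held means of 205 CPM at 0 min, 204 at 6 min and 120 at 42 min. Which of the 3 genes each SNV belongs to is not given.

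The transketolases TKL1 and TKL2 transfer carbon pairs between sugars of the reversible branch. TKL1 (YPR074C, chrXVI:692796-694838), the main form, had 1 SNV in the table of the whole series, with 2823 reads. Its level was 262, 229 and 250 CPM at 0 min, 228, 241 and 228 CPM at 6 min, and 193, 213 and 201 CPM at 12 min. It was 174, 129 and 159 CPM at 18 min, 209, 172 and 149 CPM at 24 min, and 216, 193 and 134 CPM at 42 min. Every library from 18 min on was below every library of 0 min. The change at 42 min was small, -0.46 ± 0.15 on the log2 scale (adjusted p = 0.00894, edgeR), and without culture 3 it was -0.27 (adjusted p = 0.122).

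TKL2 (YBR117C, chrII:474392-476437), the minor form, climbed later than SOL4. At 0 min the cultures held 6.69, 8.46 and 16.2 CPM, from 5, 9 and 22 reads. They held 12.7, 10.3 and 22.2 CPM at 6 min, 23.5, 21.0 and 36.4 CPM at 12 min, and 21.8, 50.6 and 92.9 CPM at 18 min. Neighbouring times overlapped over this range, and all libraries of 12 min were above all libraries of 0 min. At 24 min the levels were 35.5, 74.4 and 159 CPM, and at 42 min 287, 129 and 705 CPM. The rise passed the threshold at 24 min, at 3.01 ± 0.69 on the log2 scale (adjusted p = 7.43e-04, edgeR), and reached 5.05 ± 0.62 at 42 min (adjusted p = 5.54e-07). All 9 SNVs tested of 10 rose. The spread between cultures was wide, with culture 3 the highest and culture 2 the lowest at 42 min.

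The transaldolases TAL1 and NQM1 transfer a unit of dihydroxyacetone. TAL1 (YLR354C, chrXII:836350-837357), the main form, shares 20 SNVs with BUD8. The feature held 916, 739 and 902 CPM at 0 min and 960, 798 and 690 CPM at 42 min, and its change was -0.07 ± 0.12 on the log2 scale (adjusted p = 0.616, 95% interval -0.29 to 0.16, edgeR). Scaled to library totals alone it was -0.38 (adjusted p = 0.0066), close to the median of -0.37 that all features then had. SNVs 12 to 14 gave 84.9% of the reads and changed by 0.20, -0.03 and 0.03, none of which passed. The other 17 SNVs, at 4.40 to 18.6 CPM each at 0 min, gave 6 falls and no rise.

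NQM1 (YGR043C, chrVII:580435-581436), the minor form, shares 1 SNV with MTE1, with 156 reads over all 18 libraries. The level was 6.69, 12.2 and 14.7 CPM at 0 min and 10.5, 6.09 and 4.97 CPM at 42 min, from 4 to 20 reads per library, and the groups overlapped. The feature had too few reads for the test per feature. In the fit of each SNV as a feature of its own, its change was -0.84 ± 0.47 on the log2 scale (adjusted p = 0.130, edgeR). It was not called in either direction at this depth, and its reads cannot be split between NQM1 and MTE1.

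The isozymes were then compared within each library, as the log2 ratio of the reads of the minor to the reads of the main feature with 0.5 added to each. Such a ratio does not depend on how libraries are scaled. It is used for its change over time and not as a level. The SOL4/SOL3 ratio went from -2.28 ± 0.49 (SD, n = 3) at 0 min to 3.77 ± 0.59 at 42 min, a change of 6.05. It had reached 2.35 ± 0.65 at 6 min. The TKL2/TKL1 ratio went from -4.58 ± 0.63 to 0.74 ± 1.51, a change of 5.33, with no such jump at 6 min, where it was -3.97 ± 0.58. The GND2/GND1 ratio went from -0.77 ± 0.15 to 2.81 ± 1.23, a change of 3.58, in which the feature of GND2 rose and that of GND1 fell. With the deepest SNV of each feature that change was 1.87, while the GND2/MTM1 feature itself then changed by -0.36 (adjusted p = 0.222, edgeR). The SNVs of that feature that rose could not be assigned to GND2 or to MTM1. With a culture left out the change of the ratio was 2.92 to 3.98. In these 3 pairs the 0 and 42 min libraries did not overlap and all 3 cultures changed in the same direction. How many other pairs of features separate in this way was not computed. Between these times 76.3% of all features changed in abundance by the edgeR test, so separation alone does not set these pairs apart. The NQM1/TAL1 ratio was -6.24 ± 0.62 at 0 min and -6.75 ± 0.30 at 42 min, and the groups overlapped.

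With 3 libraries against 3, the exact two-sided permutation test cannot go below 0.1, and each of the first 3 pairs gave that value (0.133 after adjustment over 4 pairs). NQM1/TAL1 gave an exact permutation p of 0.4. The pair tests therefore could not pass a threshold of 0.05 by design.

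**Figure D3:**
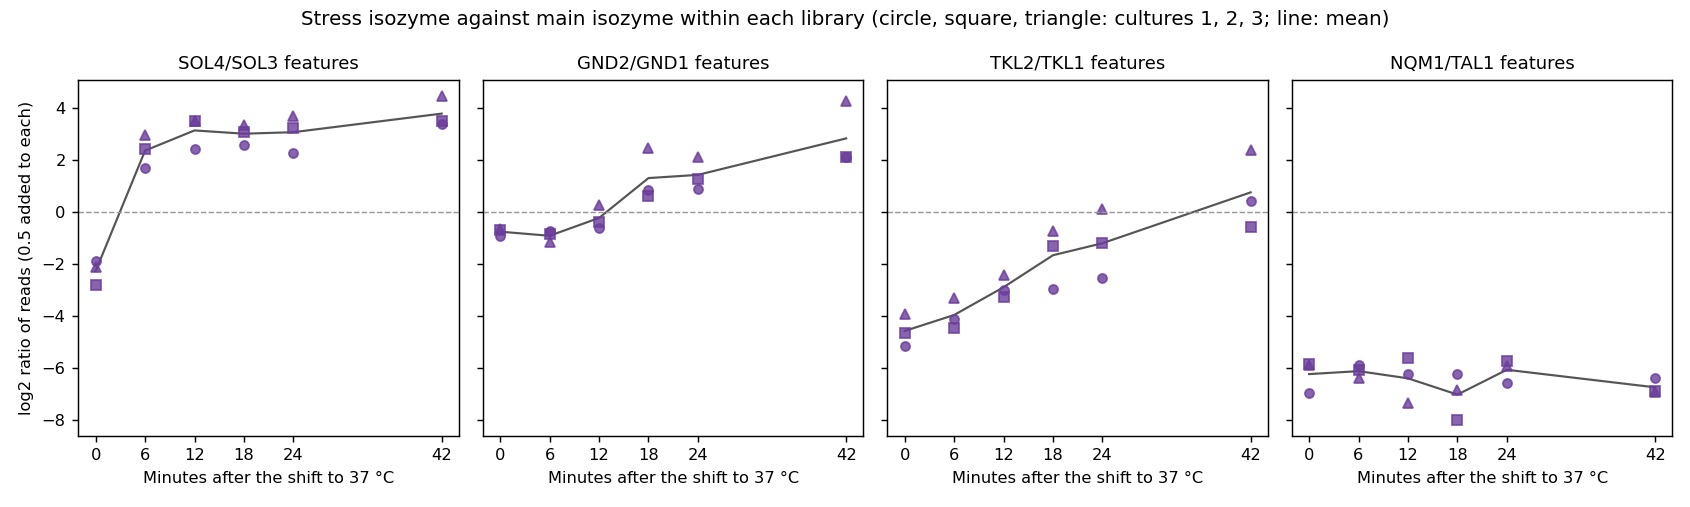
The log2 ratio of reads of the minor to the main isozyme feature, with 0.5 added to each, against minutes after the shift, for 4 pairs and 3 cultures, with lines through the means. SOL4/SOL3 jumps by 6 min, GND2/GND1 and TKL2/TKL1 climb to 2.81 and 0.74 at 42 min, and NQM1/TAL1 stays between -7.03 and -6.08 on average.

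The other question of the study was whether the 2 parental alleles decay at different rates, which is read from whether the BY part of a gene's reads changes with time (allele-specific decay, ASD). Of the 8 pathway features tested, 1 passed, that of TKL2, against 6.62% of 2838 features, 3.59% with a rising BY share. Its log2 ratio of BY to RM reads changed by 1.44 ± 0.37 over 42 min in the fit linear in time (adjusted p = 0.00515, edgeR). At 0 min the BY reads were 0 of 5, 2 of 9 and 3 of 22 in cultures 1, 2 and 3, with Wilson 95% intervals that reach up to 43.4%, 54.7% and 33.3%. At 6 min they were 7 of 14, 5 of 8 and 11 of 24. By 42 min they were 124 of 165, 71 of 106 and 383 of 567, a mean share of 69.9% ± 4.6 (SD, n = 3). Both alleles gained reads, since BY went from 5 to 578 and RM from 31 to 260, and the share was higher at 42 min in all 3 cultures. Whether the share changed through decay or through new RNA of an allele was not tested. No library of a later time had a BY share below 45.8%, and the 0 min libraries hold 36 reads in all. Without them the change was 0.65 (adjusted p = 0.487), and without culture 1 it was 1.13 (adjusted p = 0.108). It was 3.69 with time as a factor (adjusted p = 1.66e-07), 5.11 without the 42 min libraries (adjusted p = 9.41e-07) and 2.31 in DESeq2 (adjusted p = 0.00533). None of the 9 SNVs tested in this feature passed by itself, against 0.689% of 22631 SNVs.

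TKL2 lies beside the gene that was deleted in one parent. LYS2 (chrII:469748-473926) and TKL2 are on the same strand and 465 bases apart, and LYS2 reads were almost all from RM at every time. Its part in the RM excess of the TKL2 feature at 0 min was not tested.

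The other 7 features did not pass the ASD test. Their estimates lay between -0.26 (ALB1/RPE1/YJL120W) and 0.33 (GND2/MTM1) on the log2 scale. In GND2/MTM1, SNVs 7 and 8 had 0 BY reads of 41 and of 31, and SNV 9 had 1 of 34. Without SNVs under 2% or over 98% BY, the estimate of GND2/MTM1 was 0.23 (adjusted p = 0.543, edgeR). That setting still holds SNV 9, at 2.94% BY. SOL4, with the most reads among the minor isozymes, had a change of -0.17 ± 0.12 (adjusted p = 0.518, 95% interval -0.40 to 0.06). TKL1 had -0.19 ± 0.17 (adjusted p = 0.639).

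**Figure D4:**
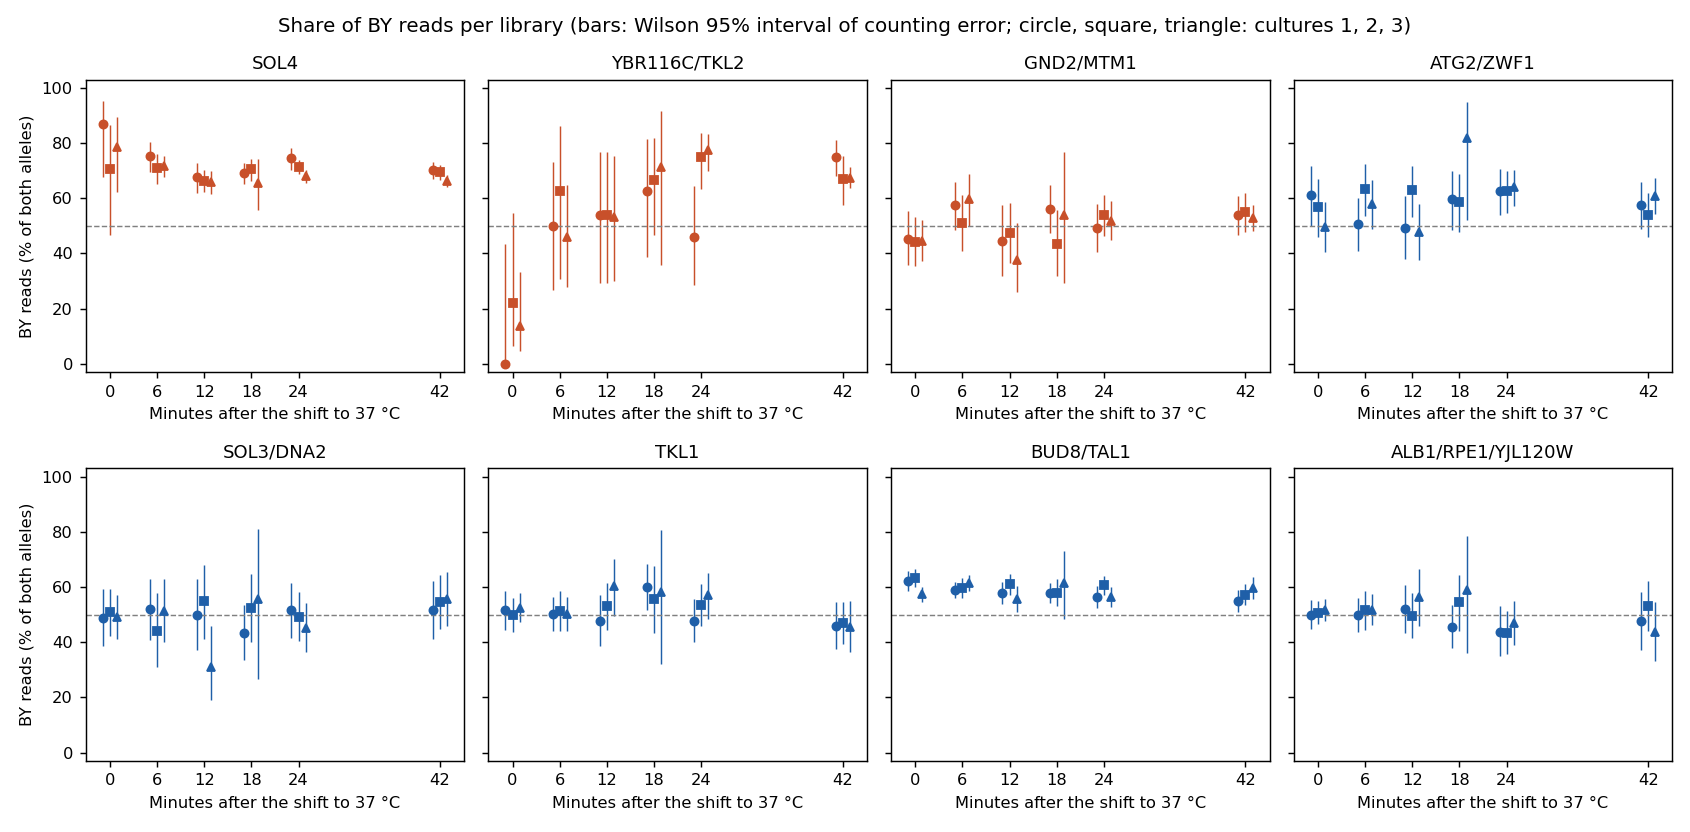
Share of BY reads (percent of both alleles) against minutes after the shift in 8 features, one marker per library, with bars for the Wilson 95% interval of counting error and a dashed line at 50%. SOL4 lies between 65.6% and 87.0% in all libraries, YBR116C/TKL2 goes from 0% to 22.2% at 0 min up to 67.0% to 75.2% at 42 min, and the wide bars at 18 min belong to the shallow library.

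Allelic expression (ASE), the BY to RM ratio at 1 time, was tested at both ends of the course. At 0 min 2 of 7 features passed, SOL4 and BUD8/TAL1, and at 42 min 4 of 8 passed, SOL4, YBR116C/TKL2, BUD8/TAL1 and ATG2/ZWF1. All were higher from BY. Over all features, 22.4% passed at 0 min (10.4% with BY higher) and 27.9% at 42 min (13.7% with BY higher).

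SOL4 had more BY than RM reads in all 18 libraries. BY gave 20 of 23, 12 of 17 and 26 of 33 reads at 0 min, a log2 ratio of 1.92 ± 0.36 (adjusted p = 3.33e-04, edgeR). DESeq2 gave 1.94 with an adjusted p of 0.0703 at these counts. At 42 min BY gave 609 of 868, 736 of 1061 and 1381 of 2082 reads, shares of 70.2%, 69.4% and 66.3% and a log2 ratio of 1.10 ± 0.06 (adjusted p = 3.58e-29). All 9 SNVs had more BY than RM reads at 42 min, from 58.7% to 83.8%. TKL2 had a log2 ratio of 1.16 ± 0.11 at 42 min (adjusted p = 3.92e-15).

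BUD8/TAL1 had a BY share of 61.0% ± 3.2 (SD, n = 3) at 0 min and 57.4% ± 2.4 at 42 min, with log2 ratios of 0.61 ± 0.06 (adjusted p = 2.57e-07, edgeR) and 0.43 ± 0.08 (adjusted p = 3.78e-06). Its 3 deep SNVs differed in BY share over all libraries, at 66.7%, 69.2% and 55.0%. With the deepest SNV alone, the 42 min ratio was 0.19 (adjusted p = 0.202). ATG2/ZWF1 had a ratio of 0.46 ± 0.13 at 42 min (adjusted p = 0.00497), which was 0.33 without culture 3 (adjusted p = 0.185) and 0.45 in DESeq2 (adjusted p = 0.424). TKL1 had BY shares of 51.3% ± 1.4 at 0 min and 46.1% ± 0.7 at 42 min, and neither passed (adjusted p = 0.630 and 0.276).

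The change of allelic ratio was compared between isozymes in the 3 pairs where both had reads of each allele. From 0 to 42 min the difference of log2 BY to RM ratios between TKL2 and TKL1 moved by 4.02, that between SOL4 and SOL3 by -0.98, and that between NQM1 and TAL1 by 0.09. The value for TKL2 and TKL1 rests on the few reads of TKL2 at 0 min and on the 0.5 added to each count. It was 4.88 with 0.1 reads added, 3.17 with 2 added and 3.12 with the deepest SNV, and 3.35 to 4.65 with a culture left out. The value for SOL4 and SOL3 also rests on few reads, with 3, 5 and 7 RM reads of SOL4 at 0 min. It was -0.72 with 2 reads added and -0.77 with the deepest SNV (exact permutation p of 0.2 and 0.6). With a culture left out it was -1.36 to -0.73. In the main setting the exact two-sided permutation p was 0.1, the smallest possible, for TKL2 and TKL1 and for SOL4 and SOL3 (0.15 after adjustment over 3 pairs). It was 1.0 for NQM1 and TAL1.

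A list of 17 genes linked to the pathway was described beside the members. It holds paralogs of SOL3 and SOL4, enzymes of sugar phosphates, PRPP synthetases, other cytosolic NADPH sources and a regulator. Among the 17, 14 had a feature with enough reads for the abundance test. Only 6 of the 14 are features of 1 gene, and the others are counted with neighbours, so the counts are of features. Of the 14, 8 rose, 4 fell and 2 did not pass from 0 to 42 min, with a median log2 change of 0.30. Among all features, 37.2% rose and 39% fell. Scaled to library totals alone, 5 rose and 5 fell, against 26.6% and 49.6%. The largest changes were those of ARF3/RKI1, which holds ribose 5-phosphate isomerase (-4.30 ± 0.29), RPN12/YFR052C-A/HXK1, which holds hexokinase 1 (2.48 ± 0.26), IDP2, a cytosolic NADP-dependent isocitrate dehydrogenase (1.61 ± 0.22), PRS1, a subunit of PRPP synthetase (-1.50 ± 0.15), and HXK2/RTG2, which holds hexokinase 2 (-1.38 ± 0.15). In the ASD test, the BY share rose in 3 of the 14 and fell in 1, where 6.62% of all features passed and 3.59% had a rising share. Allelic expression passed in 7 of 14 at 0 min, 3 with BY higher, against 22.4% of all features and 10.4% with BY higher. At 42 min it passed in 7 of 13, 4 with BY higher, against 27.9% and 13.7%.

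The single-gene features whose levels over the 18 libraries were most like those of each minor isozyme were found by Pearson's r of log2 CPM, among about 980 features with a mean of at least 100 reads. For SOL4 they were the transcription factor gene USV1 (r = 0.993), the trehalose phosphatase gene TPS2 (0.991) and SDS24 (0.991). For YBR116C/TKL2 they were the proline catabolism gene PUT2 (0.957), the fumarase gene FUM1 (0.955) and the cyclin-like gene CLG1 (0.949). For GND2/MTM1 they were the cell wall gene PIR3 (0.919), the mitochondrial ribosomal gene MRPL16 (0.907) and the kinase gene SKY1 (0.906). The GND2/MTM1 level sums SNVs that rose with SNVs that did not pass, so its profile is a mixture. MTE1/NQM1, with few reads, reached 0.791 with DCW1, 0.595 with DLD3 and 0.568 with GCN4. The points share the 6 times and 3 cultures, so these values are a description.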

How the data were processed

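Poly(A) RNA libraries were made with a kit that does not mark strand and sequenced as 50-base paired reads in 1 lane, per the labels' protocols. The authors deposited raw counts of reads per SNV and allele, in 1 table of the whole series (30497 SNVs) and in tables per library (35952 SNVs). Alignment to both parental genomes, duplicate removal, masking of poorly mapping sites and merging of overlapping genes into features were done by the authors, per the file headers. The submitters' processing notes name BWA 0.5.9, Picard 1.43 and sacCer3 (the R64 assembly). One read over several SNVs may be counted more than once. Counts were identical at shared SNVs, and the first table was used except for GND1.

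Counts were summed per feature, allele and library. Tests used edgeR 4.0.16 (R 4.3.3) by quasi-likelihood with Benjamini-Hochberg adjustment over all features with a mean of at least 20 reads per library and, for allelic tests, at least 2 reads of each allele. ASD had terms for library, allele and allele by time, with the slope multiplied by 42 min. Abundance used the sum of alleles, TMM factors and time as a factor. A value after ± of a log2 change is its standard error. The fits for ASD, for ASE at 0 min and for abundance at 42 against 0 min were tested on simulated counts. Wilson intervals and limits from a count of 0 cover counting error only, and 95% intervals of log2 changes are 1.96 standard errors of the edgeR fit to each side. Alternatives used DESeq2 1.42.0, other SNV sets, scaling and filters, and each culture or the shallow library left out. Each SNV as a feature of its own was added after the data were seen.

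The replicate numbers name cultures sampled at all 6 times, per the labels' protocols. Deviations from the group means correlated with a median of 0.159 (-0.044 to 0.452, 45 pairs) within a culture and -0.058 between cultures. No library was found to be deposited again as another (chi-square per degree of freedom of 1.32 to 9.22). The 10 genes, the lists, the motifs and the rule for named genes (all 10, up to 5 called genes of the list of 17 with the largest abundance change, LYS2, and the 3 features most like each minor isozyme) were chosen with earlier results of these data known. Coding sequences and the 500-base windows were read from the R64 genome with Python 3.11.15 and Biopython 1.88. Protein sequences were not used here.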

Additional observations from a re-analysis of the deposited data

Results flagged for a closer look

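The tables per library hold 2 SNVs of TKL1 that the table of the whole series does not, with 3165 reads at them. Of these reads, 3162 were from BY and 3 from RM, a BY share of 99.9% (Wilson 95% interval 99.72% to 99.97%), while the third SNV of the gene had 1450 BY and 1373 RM reads. With all 3 SNVs the TKL1 ratio became 1.84 at 0 min (adjusted p = 1.13e-12, edgeR) and 1.41 at 42 min (adjusted p = 1.60e-11). The 4 SNVs of GND1 in those tables had the same one-sided pattern. The cause was not tested.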

How the results depend on the processing

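Of the values for whole comparisons recomputed under alternatives, 90 kept their direction and their side of the threshold or, for counts of features, stayed within 1.5 times the main count. A further 14 counts moved by more and 1 value reversed, and of those for single pathway features 291 kept direction and call, 7 lost a call, 2 gained one and 9 reversed. The 90 include values of the isozyme pairs, whose exact tests cannot pass 0.05, so at most their direction could change. Some of these pair values could not change at all. A replicate block gives the same pair change by construction, and some SNV sets left the counts of a pair as they were. The ASD test called 42 features with the deepest SNV per feature, 118 with DESeq2, 86 without the 0 min libraries, 115 without the 42 min libraries and 97 to 186 with a culture or the shallow library left out, against 188. The ASE test at 0 min called 356 with the deepest SNV, 216 with DESeq2 and 400 to 536 with a culture left out, against 674, and that at 42 min called 311, 219 and 514 to 556, against 722. The abundance test called 1439 with the deepest SNV, 11789 of 22937 when each SNV was a feature, and 1926 to 2024 with a culture left out, against 2166. Without TMM it called 756 up and 1409 down, against 1057 and 1109. The reversed values were, for ASD, -0.15 for SOL3/DNA2 and 0.31 for TKL1 without the 42 min libraries and -0.083 for ATG2/ZWF1 without replicate 3 (0.47 without replicate 2). For ASE they were -0.045 for the RPE1 feature at 0 min with the deepest SNV, 0.044 for it at 42 min without replicate 3 (-0.25 without replicate 2), and 1.41 for TKL1 at 42 min with all SNVs. For abundance they were -0.36 for GND2/MTM1 with the deepest SNV, -0.17 for SOL3/DNA2 without TMM and 0.082 for BUD8/TAL1 without replicate 3, and for the NQM1 and TAL1 allelic difference -0.53 without replicate 2 (0.63 without replicate 3). Not one of these reversed pathway values had passed a threshold in the main tests except that of GND2/MTM1, and the causes were not tested. The NQM1/TAL1 ratio, at -0.51, was -1.04 to -0.24 with a culture left out. With a replicate block for culture the tests called 183 features for ASD and 2241 for abundance, and no pathway call changed. The pair changes were then the same by construction, with an exact sign-flip p that cannot go below 0.25. Depth limited TKL2 at 0 min, NQM1 throughout and the 18 min library of culture 3.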
